A study of Danio rerio with 12 samples.

Results

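The genes described here belong to the fibroblast growth factor (FGF) pathway: the ligands fgf10a, fgf20a and fgf24, the FGF-binding protein fgfbp2b, and the targets etv4, etv5b, dusp6, spry2, spry4 and il17rd. They are 10 genes, chosen by name with earlier results of these data known. Of the 30258 Ensembl gene IDs in the count table, 12 hold them. For 8 genes 1 ID was found. For fgf10a and fgf20a the symbol table gives FGF10 and FGF20 to 2 IDs each without a paralogue letter, so both IDs are described and neither is called a or b. A filter on low counts left 9 of the 12 IDs among the 13978 genes tested. Both FGF20 IDs and 1 FGF10 ID did not pass it.

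Messenger RNA was counted by 3′-end sequencing in tail tips of wild type zebrafish larvae, each library being a pool of 100 tails, with 3 libraries in each of 4 groups. Cut SB431542 tails had been cut at the pigment gap, about 200 µm from the tip, at 72 hours post fertilization (hpf) and were held in 50 µM SB431542, an inhibitor of the TGF-β and activin type I receptors, until 90 hpf, when another 200 µm was taken. Uncut SB431542 tails came from unoperated larvae in the same drug over the same hours, with the same region taken at 90 hpf. Cut DMSO and uncut DMSO tails were handled in the same ways in 0.1% DMSO, the vehicle. All larvae were raised at 28.5 °C. The labels do not say whether the pools of a group came from separate clutches, so the p-values reflect only how much these pools vary, a spread that may be technical.

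FGFs are secreted proteins that bind receptor tyrosine kinases together with heparan sulphate and signal largely through Ras and the kinase ERK. Cells that receive the signal transcribe ETS factors of the PEA3 group, such as etv4 and etv5b, and a set of inhibitors that act back on the pathway, among them the Sprouty proteins, Dusp6 and Il17rd, also known as Sef. FGF signalling is needed for the regrowth of amputated zebrafish fins, in which fgf20a is required to form the blastema.

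Total counts ran from 7368986 to 12914981 per library. Levels are CPM, counts relative to a library size scaled with the trimmed-mean factors of edgeR, and are given for replicates 2, 3 and 4 of both SB431542 groups, 1, 3 and 4 of cut DMSO tails and 1, 2 and 4 of uncut DMSO tails. The actinodin genes and1, and2 and and3, which mark fin fold tissue, were present in every library, and the 6 matched fin fold genes summed to 2240 to 2950 CPM in cut SB431542, 2850 to 4270 CPM in uncut SB431542, 2080 to 2590 CPM in cut DMSO and 2570 to 2700 CPM in uncut DMSO tails. Library uncut SB431542 replicate 4 stood apart, with a median Spearman correlation to the other libraries of 0.899, against 0.933 to 0.942 for the other 11 libraries, so values that lose a call, turn in direction or move by over 1.5 times without it are also given without it.

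Of the 9 tested IDs, only fgfbp2b passed edgeR's test for excision, and it rose 8.44-fold in cut over uncut tails under SB431542 and 9.51-fold under DMSO. Its call under DMSO held in all 18 alternative settings, which include leaving out each library, and its call under SB431542 in 12 of 18. None of the 6 target genes passed edgeR's test in any of the 5 comparisons, and neither did fgf24 or the FGF10 ID that could be tested. DESeq2 called spry2 for excision under SB431542 and dusp6 for SB431542 in cut tails. Both FGF20 IDs were near the limit of counting in all 4 groups. Among the targets, spry2 was lower in cut tails under both treatments, and dusp6 was higher with SB431542 in both tissues. Their groups did not overlap, but the adjusted p-values were above 0.05 in edgeR. Such separation, in either direction, was common among all genes tested. It was found for 18.6% of them for excision under SB431542 and 28.6% under DMSO. For SB431542 over DMSO it was found for 24.2% in cut and 17.9% in uncut tails.

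fgf24, a ligand needed in zebrafish for outgrowth of the pectoral fin, had 6.29, 4.57 and 4.07 CPM in cut SB431542, 5.66, 4.44 and 4.84 CPM in uncut SB431542, 6.74, 5.42 and 6.76 CPM in cut DMSO, and 10.6, 11.0 and 5.01 CPM in uncut DMSO tails. Replicates 1 and 2 of uncut DMSO tails were the highest of the 12 libraries, but replicate 4 of that group lay among the others, and the groups overlapped in every comparison. Its lowest unadjusted p was 0.0244, for SB431542 over DMSO in uncut tails, with a log2 fold change of -0.79 ± 0.32 (SE) and an adjusted p of 0.231 in edgeR's quasi-likelihood test. The log2 fold change of cut over uncut tails was -0.02 under SB431542 (adjusted p = 0.986) and -0.45 under DMSO (adjusted p = 0.42).

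FGF10, known as a ligand made by limb and fin mesenchyme that signals to the overlying epithelium, is held by 2 IDs. ENSDARG00000030932 had 1.57, 2.28 and 3.03 CPM in cut SB431542, 2.83, 1.78 and 3.83 CPM in uncut SB431542, 2.52, 1.05 and 2.93 CPM in cut DMSO, and 0.93, 2.14 and 1.64 CPM in uncut DMSO tails. All pairs of groups overlapped, and the largest difference was a log2 fold change of 0.89 for SB431542 over DMSO in uncut tails (adjusted p = 0.37). Without uncut SB431542 replicate 4 that value was 0.58. The other ID, ENSDARG00000100475, fell below the count filter with 2, 13 and 1 reads in cut SB431542, 17, 2 and 3 in uncut SB431542, 3, 0 and 0 in cut DMSO, and 0, 0 and 0 in uncut DMSO tails. Most of its 41 reads lay in 2 libraries, cut SB431542 replicate 3 and uncut SB431542 replicate 2. Every SB431542 library held 1 read or more, while of the DMSO libraries only cut DMSO replicate 1 held any. In uncut tails the SB431542 and DMSO libraries thus did not overlap, as for 17.9% of all genes tested. A count of 0 allows up to 3 reads, which is 0.289 to 0.428 CPM in the uncut DMSO libraries. With no count filter its adjusted p for SB431542 over DMSO in uncut tails was 0.131.

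FGF20 is likewise held by 2 IDs, and both fell below the filter. ENSDARG00000007356 had 0, 0 and 1 reads in cut SB431542, 0, 1 and 0 in uncut SB431542, 3, 2 and 1 in cut DMSO, and 0, 0 and 0 in uncut DMSO tails. ENSDARG00000086070 had 4, 2 and 0 reads in cut SB431542, 1, 0 and 5 in uncut SB431542, 0, 0 and 2 in cut DMSO, and 8, 2 and 3 in uncut DMSO tails. The first had 6 of its 8 reads in cut DMSO tails, 1 or more in each library, and the second had 13 of its 27 reads in uncut DMSO tails. With no count filter the adjusted p for cut over uncut tails under DMSO was 0.492 for the first and 0.289 for the second, so no difference in FGF20 was detectable at this depth.

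**Figure D1:**
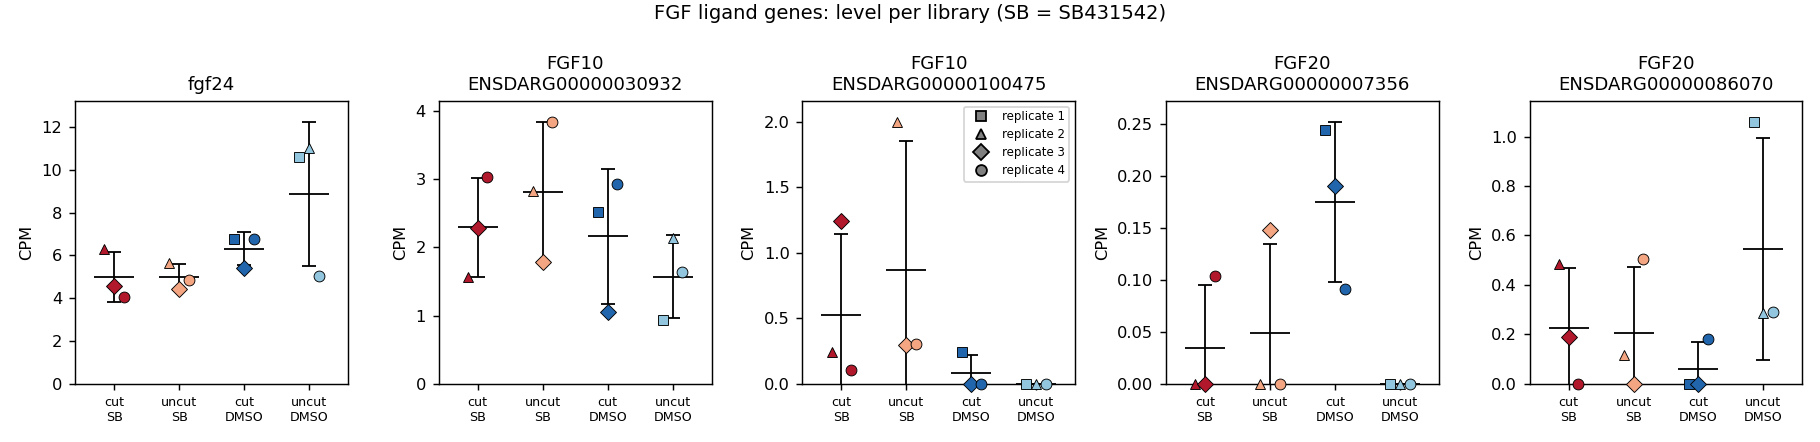
Level of each FGF ligand ID in CPM (vertical axis, linear, a separate scale in each panel) in the 12 libraries by group; SB is SB431542, symbols mark the replicate number, horizontal bars are means and error bars are SD over 3 libraries, cut at 0 where they would go below it. fgf24 reaches 11.0 CPM in uncut DMSO tails, while both FGF20 IDs and FGF10 ENSDARG00000100475 have libraries at 0.

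fgfbp2b (ENSDARG00000038056) belongs to the secreted FGF-binding proteins, of which the best-studied mammalian member frees FGFs from the heparan sulphate of the matrix. Its level was 5.69, 13.2 and 14.8 CPM in cut SB431542, 0.826, 0.592 and 2.32 CPM in uncut SB431542, 19.8, 24.7 and 44.8 CPM in cut DMSO, and 6.11, 2.57 and 1.16 CPM in uncut DMSO tails. Under each treatment every cut library lay above every uncut one, and every cut SB431542 library lay below every cut DMSO one. The means were 11.2 ± 4.88, 1.25 ± 0.937, 29.8 ± 13.2 and 3.28 ± 2.55 CPM (SD, n = 3) in cut SB431542, uncut SB431542, cut DMSO and uncut DMSO tails, so cut DMSO tails were highest, cut SB431542 tails next, and the 2 uncut groups lowest and overlapping.

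Under DMSO, fgfbp2b rose in cut tails with a log2 fold change of 3.25 ± 0.51 (SE), a 9.51-fold difference with a 95% interval of 4.45 to 20.3 (edgeR quasi-likelihood test, adjusted p = 0.0019). It was the 1 gene called among the 9 tested, where 5.58% of all tested genes were called in this comparison. The cut and uncut DMSO libraries did not overlap for 2 of the 9, fgfbp2b and spry2, beside 28.6% of all tested genes. The call held under all 18 alternatives run, with folds from 6.76 to 16.9 and adjusted p-values from 0.000279 to 0.0174. The highest fold was that without uncut DMSO replicate 1, the highest library of its group.

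Under SB431542, fgfbp2b also rose in cut tails, with a log2 fold change of 3.08 ± 0.64 and a fold of 8.44 (95% interval 3.25 to 21.9, adjusted p = 0.0265). Again it was 1 of 9 tested, beside 2.06% of all genes called. The same 2 genes had no overlap between groups, beside 18.6% of all genes. This call held in 12 of 18 alternatives. It was lost with no count filter (adjusted p = 0.0663) and without cut SB431542 replicate 3 (0.102) or 4 (0.0946) or uncut SB431542 replicate 2 (0.0898), 3 (0.0872) or 4 (0.0548), the log2 fold change without the last, the library that stood apart, being 3.96 (15.5-fold). The response to excision with SB431542 differed from that with DMSO by a log2 value of -0.17 (95% interval -2.25 to 1.91, interaction, adjusted p = 0.988), an interval that spans large differences in both directions. That value was 0.70 without uncut SB431542 replicate 4 and -1.0 without uncut DMSO replicate 1.

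SB431542 over DMSO gave fgfbp2b a log2 fold change of -1.38 ± 0.41 in cut tails, a fold of 0.383 (95% interval 0.207 to 0.709). The groups did not overlap and the unadjusted p was 0.00486, but the adjusted p was 0.141, and it stayed above 0.05 in all 18 alternatives, from 0.106 to 0.428. In this comparison 0 of the 9 and 0.286% of all genes were called, while groups did not overlap for 5 of the 9, dusp6, spry4 and il17rd on the higher side and fgfbp2b and etv4 on the lower, beside 24.2% of all genes. In uncut tails the log2 fold change was -1.21 ± 0.80 (adjusted p = 0.468). It was -2.09 without uncut SB431542 replicate 4 and -0.39 without uncut DMSO replicate 1. There 0 of the 9 and 0.0787% of all genes were called, and groups did not overlap for 1 of the 9, dusp6, beside 17.9% of all genes. The estimated counts of fgfbp2b were not whole in any of the 12 libraries. How the fractions arose was not tested, and its level is held as less certain than that of a gene with whole counts.

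**Figure D2:**
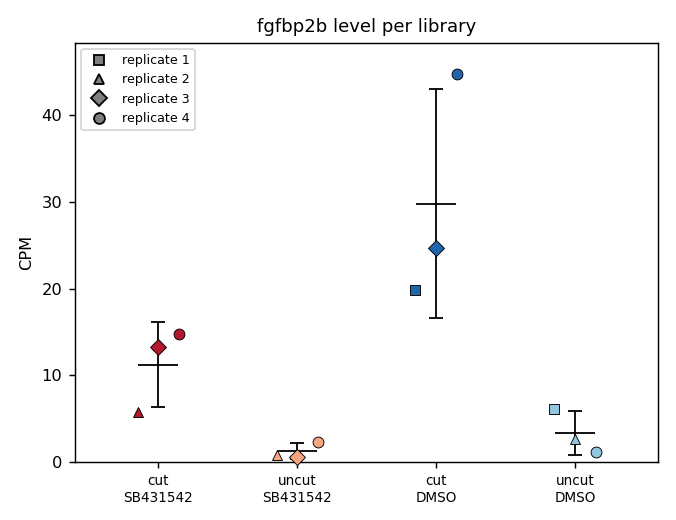
Level of fgfbp2b in CPM (vertical axis, linear) in the 12 libraries by group; symbols mark the replicate number, horizontal bars are means and error bars are SD over 3 libraries. The cut SB431542 libraries lie between 5.69 and 14.8 CPM, the cut DMSO libraries between 19.8 and 44.8 CPM, and the uncut libraries at 6.11 CPM or below.

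Markers of other cells moved with excision beside fgfbp2b. For scale, 2.06% of all genes tested were called for excision under SB431542 and 5.58% under DMSO, in either direction. Of 6 matched genes on a macrophage list, 4 could be tested, lcp1, ptprc, marco and spi1b, and all 4 rose under both treatments. Whether these 4 came from macrophages alone was not tested. Their list summed to 49.1 to 79.3 CPM in cut SB431542, 19.8 to 21.8 CPM in uncut SB431542, 72.0 to 124 CPM in cut DMSO and 16.6 to 28.2 CPM in uncut DMSO tails, with no gene of it at 0 throughout a group. Of 6 neutrophil genes, 5 had a log2 fold change above 0 under each treatment, and 3 were called higher under SB431542 and 5 under DMSO. The other gene, lyz, had a log2 fold change of -0.21 under SB431542 and -0.15 under DMSO and was not called. Whether the genes that rose came from neutrophils alone was not tested. The neutrophil sums, mostly lyz, were 288 to 459 CPM in cut SB431542 and 237 to 395 CPM in uncut SB431542 tails. They were 403 to 500 CPM in cut DMSO and 346 to 488 CPM in uncut DMSO tails. Of 11 cell cycle IDs, all 11 had a log2 fold change above 0 for excision under both treatments. Of these, 1 was called under SB431542 and 2 under DMSO. Their median log2 fold change was 0.855 under SB431542 and 1.118 under DMSO, beside 0.003 and 0.019 over all genes tested. Their sums were 313 to 551, 171 to 352, 484 to 639 and 259 to 331 CPM in cut SB431542, uncut SB431542, cut DMSO and uncut DMSO tails. The part of these cells in the fgfbp2b result was not tested. In whole tissue, a change in the number of cells of a type and a change in RNA per cell cannot be told apart.

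By the highest Pearson correlation of log2 CPM over the 12 libraries, among 7858 genes compared, the pattern of fgfbp2b was most like those of RASGEF1B (ENSDARG00000044251, 1 of 2 IDs with that symbol, r = 0.968), cyb5b (0.967), KPNA2 (0.955), PSMC3 (0.955) and CSE1L (0.954). KPNA2, an importin that carries proteins into the nucleus, averaged 80.0 ± 13.2 CPM in cut SB431542, 31.1 ± 16.5 CPM in uncut SB431542, 114 ± 38.3 CPM in cut DMSO and 42.6 ± 6.16 CPM in uncut DMSO tails (SD, n = 3 each). PSMC3, a subunit of the proteasome, averaged 79.3 ± 20.8, 45.6 ± 7.13, 94.1 ± 9.94 and 50.6 ± 13.7 CPM in the same order of groups. Like fgfbp2b, all 5 had their highest mean in cut DMSO and their lowest in uncut SB431542 tails. They were picked for their likeness to fgfbp2b in these libraries, so this shared order largely follows from the choice. The points share their libraries and the difference between cut and uncut tails, so these values are a description.

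etv4 encodes a PEA3-group ETS factor, one of the classic transcriptional readouts of FGF signalling in zebrafish. It had 15.2, 16.2 and 16.7 CPM in cut SB431542, 15.8, 25.5 and 24.0 CPM in uncut SB431542, 17.5, 21.3 and 21.8 CPM in cut DMSO, and 16.6, 20.8 and 16.9 CPM in uncut DMSO tails. The cut SB431542 libraries lay close together and just below all cut DMSO libraries, while cut and uncut groups overlapped under both treatments. The log2 fold change of SB431542 over DMSO in cut tails was -0.33 (adjusted p = 0.463), and that of cut over uncut tails was -0.43 under SB431542 (adjusted p = 0.331) and 0.16 under DMSO (adjusted p = 0.72).

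etv5b, another PEA3-group factor, had 27.5, 21.7 and 25.0 CPM in cut SB431542, 23.6, 25.0 and 35.8 CPM in uncut SB431542, 31.3, 30.3 and 23.4 CPM in cut DMSO, and 18.7, 22.4 and 24.6 CPM in uncut DMSO tails. All pairs of groups overlapped. The highest value was in the uncut SB431542 library that stood apart. Its log2 fold change of cut over uncut tails was -0.20 under SB431542 (adjusted p = 0.702), or 0.02 without that library, and 0.37 under DMSO (adjusted p = 0.344).

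dusp6 encodes a phosphatase that removes the activating phosphates from ERK. It had 58.7, 61.2 and 55.8 CPM in cut SB431542, 57.5, 51.1 and 48.6 CPM in uncut SB431542, 31.8, 42.6 and 39.6 CPM in cut DMSO, and 47.8, 45.1 and 36.6 CPM in uncut DMSO tails. Every SB431542 library lay above every DMSO library, in cut and in uncut tails. Groups did not overlap, in either direction, for 24.2% of all genes tested in cut and 17.9% in uncut tails. In cut tails SB431542 over DMSO gave 1.54-fold (95% interval 1.20 to 1.99), a log2 fold change of 0.63 ± 0.17 with an unadjusted p of 0.00198 and an adjusted p of 0.104, so no gene of the 9 was called in edgeR. DESeq2 called it (log2 fold change 0.62, adjusted p = 0.0328), and edgeR called it without uncut SB431542 replicate 4 (0.62, adjusted p = 0.0404). Over all 18 alternatives its adjusted p ran from 0.0328 to 0.354. In uncut tails the log2 fold change was 0.28 (adjusted p = 0.434). For cut over uncut tails it was 0.16 under SB431542 (adjusted p = 0.707), or 0.11 without uncut SB431542 replicate 4, and -0.18 under DMSO (adjusted p = 0.611).

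spry2 encodes a Sprouty protein, an inhibitor of signalling between growth factor receptors and ERK. It had 14.5, 13.1 and 16.8 CPM in cut SB431542, 18.4, 27.7 and 58.3 CPM in uncut SB431542, 14.2, 18.1 and 21.6 CPM in cut DMSO, and 26.6, 33.7 and 29.6 CPM in uncut DMSO tails. Every cut library lay below every uncut library of the same treatment. Cut and uncut groups did not overlap, in either direction, for 18.6% of all genes tested under SB431542 and 28.6% under DMSO. The uncut SB431542 libraries were far apart, with the highest value of all 12 in the library that stood apart.

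Under SB431542 the fold of spry2 in cut over uncut tails was 0.422 (95% interval 0.262 to 0.677), with a log2 fold change of -1.25 ± 0.32, an unadjusted p of 0.00136 and an adjusted p of 0.0586. It was called in 4 of 18 alternatives, by DESeq2 (log2 fold change -1.23, adjusted p = 0.00795), with no count filter (-1.25, 0.0498), with the replicate number as a block (-1.17, 0.0431) and without uncut SB431542 replicate 2 (-1.56, 0.00454). Without uncut SB431542 replicate 4 the log2 fold change was -0.63, with an adjusted p of 0.167. Under DMSO the fold was 0.599 (95% interval 0.376 to 0.954), with a log2 fold change of -0.74 ± 0.32 and an adjusted p of 0.196. The DMSO comparison was called in 1 of 18 alternatives, the one without uncut SB431542 replicate 4, a library of neither group, which shares the spread estimate (-0.74, adjusted p = 0.0206), and its adjusted p otherwise reached up to 0.429. For SB431542 over DMSO in uncut tails the log2 fold change of spry2 was 0.23 (adjusted p = 0.746), and it was -0.39 without that library (adjusted p = 0.58).

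Skeletal muscle genes, most notochord genes and the keratin genes of the epidermis were also lower in cut tails. The calls below stand beside 2.06% of all genes tested called for excision under SB431542 and 5.58% under DMSO, in either direction. Of 6 muscle IDs, 0 had a log2 fold change above 0 under either treatment, and 3 were called lower under SB431542 and 4 under DMSO. Their sums were 41600 to 59600 CPM in cut SB431542, 73800 to 100000 CPM in uncut SB431542, 49000 to 73000 CPM in cut DMSO and 83000 to 94100 CPM in uncut DMSO tails. Of 8 notochord IDs tested, 2 were above 0 under SB431542 and 3 under DMSO. Those called were 2 lower and 0 higher under SB431542, and 3 lower and 1 higher under DMSO. The 9 notochord IDs summed to 1290 to 1360, 2320 to 3210, 975 to 1190 and 1880 to 3600 CPM in cut SB431542, uncut SB431542, cut DMSO and uncut DMSO tails, with no muscle or notochord ID at 0 throughout a group. Of 7 epidermal genes, 0 were called under SB431542 and 3, the keratin genes krt4, krt5 and krt17, fell under DMSO. The others did not move with them. Log2 fold changes of cut over uncut tails were above 0 for 4 of the 7 under SB431542 and 2 of the 7 under DMSO. Their medians were 0.33 and -0.24. The 7 genes, mostly through the keratins, summed to 8130 to 9620 CPM in cut SB431542 and 12700 to 13800 CPM in uncut SB431542 tails. The sums were 6040 to 7450 CPM in cut DMSO and 10700 to 16700 CPM in uncut DMSO tails, with none of the 7 at 0 throughout a group. The part of these tissues in the lower spry2 was not tested.

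spry4, a second Sprouty gene, had 63.9, 46.2 and 45.1 CPM in cut SB431542, 45.9, 45.4 and 24.1 CPM in uncut SB431542, 39.1, 38.1 and 40.0 CPM in cut DMSO, and 39.3, 42.7 and 36.6 CPM in uncut DMSO tails. In cut tails all SB431542 libraries lay above all DMSO libraries, at a log2 fold change of 0.40 (adjusted p = 0.388), and the lowest of the 12 values was in the uncut SB431542 library that stood apart. The log2 fold change of cut over uncut tails was 0.43 under SB431542 (adjusted p = 0.352), or 0.17 without uncut SB431542 replicate 4. Under DMSO it was -0.01 (adjusted p = 0.983).

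il17rd encodes Sef, a transmembrane protein that inhibits FGF receptor signalling. It had 61.6, 59.2 and 51.1 CPM in cut SB431542, 57.3, 49.7 and 53.2 CPM in uncut SB431542, 46.5, 48.6 and 46.5 CPM in cut DMSO, and 61.9, 56.0 and 39.2 CPM in uncut DMSO tails. Its counts, like those of fgfbp2b, were not whole in any library. All cut SB431542 libraries lay above all cut DMSO libraries, at a log2 fold change of 0.28 (adjusted p = 0.473), and cut and uncut groups overlapped under both treatments.

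**Figure D3:**
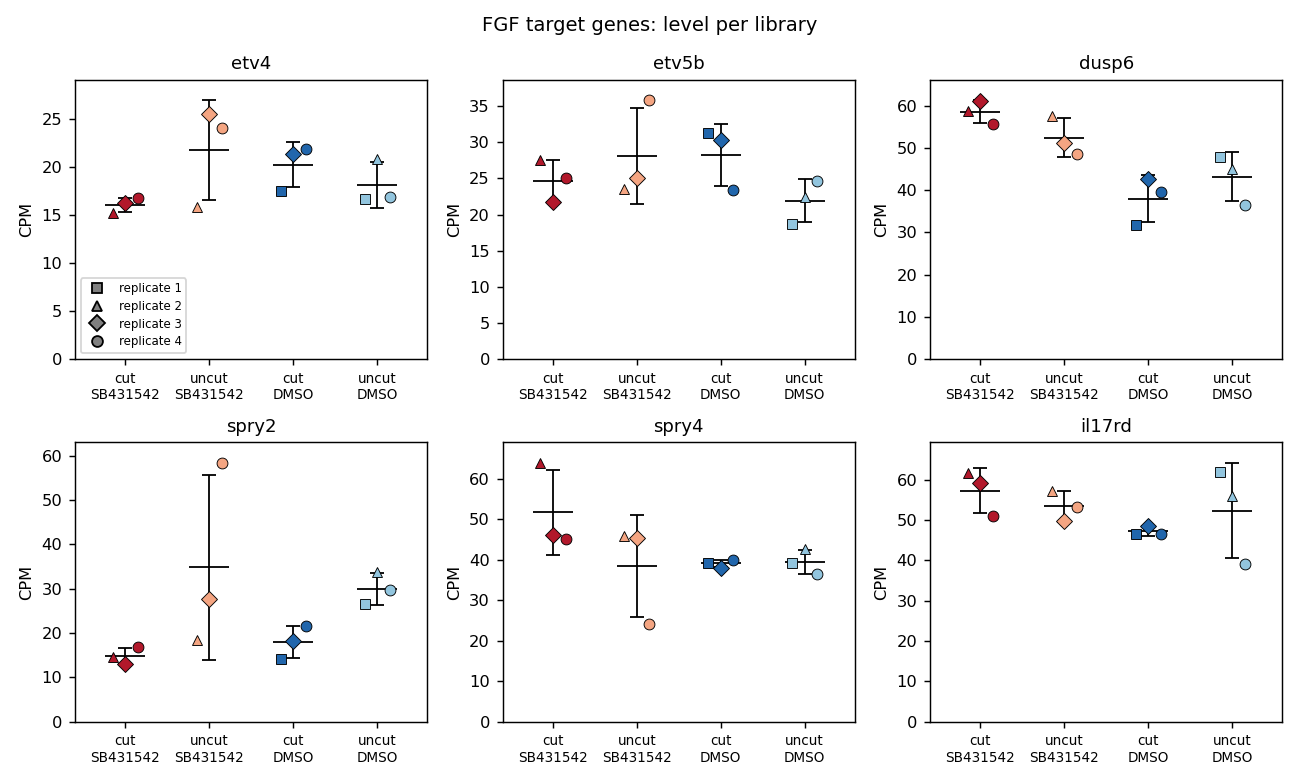
Level of each of the 6 FGF target genes in CPM (vertical axis, linear, a separate scale in each panel) in the 12 libraries by group; symbols mark the replicate number, horizontal bars are means and error bars are SD over 3 libraries. The spry2 panel shows both cut groups below their uncut groups, with 58.3 CPM in uncut SB431542 replicate 4, and the dusp6 panel shows both SB431542 groups above both DMSO groups.

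Read as a group, the 6 targets did not move in 1 direction after excision. Their median log2 fold change of cut over uncut tails was -0.05 under SB431542, with 3 of 6 above 0, and -0.08 under DMSO, with 2 of 6 above 0, beside medians of 0.00 and 0.02 over all genes tested. Without uncut SB431542 replicate 4, etv5b turned from -0.20 to 0.02 under SB431542, so that count depends on this library. For SB431542 over DMSO the median was 0.04 in cut tails, with 3 of 6 above 0, and 0.25 in uncut tails, with 5 of 6 above 0, beside 0.00 and 0.01 over all genes. In uncut tails, leaving out the same library turned spry2 from 0.23 to -0.39 and spry4 from -0.05 to 0.21. In edgeR 0 of 6 were called in each comparison. Of all 9 tested IDs, those with an unadjusted p under 0.05 numbered 2 for excision under SB431542, 2 for excision under DMSO, 2 for SB431542 in cut tails and 1 in uncut tails, beside 2239, 2858, 2138 and 2307 of the 13978 genes. DESeq2 called 2, 1, 1 and 0 of them, beside 549, 1067, 324 and 293 genes in all. For excision, the widest 95% interval of a target was that of spry2, at -1.93 to -0.56 under SB431542 and -1.41 to -0.07 under DMSO on the log2 scale. That of spry4 for excision under SB431542 reached from -0.03 to 0.89. A gene with an adjusted p above 0.05 was therefore not shown to be equal between groups.

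The test of whether excision acted differently with SB431542 called 0 of the 13978 genes (0%), with a lowest adjusted p of 0.91. In it 706 genes, none of the 9 among them, had an unadjusted p under 0.05, and DESeq2 also called 0. Across the 6 targets the interaction ran from -0.59 to 0.45 on the log2 scale, with adjusted p-values from 0.91 to 0.917. For spry2 it was -0.51, and 0.11 without uncut SB431542 replicate 4. Without that library it went from 0.45 to 0.19 for spry4 and from -0.56 to -0.34 for etv5b.

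**Figure D4:**
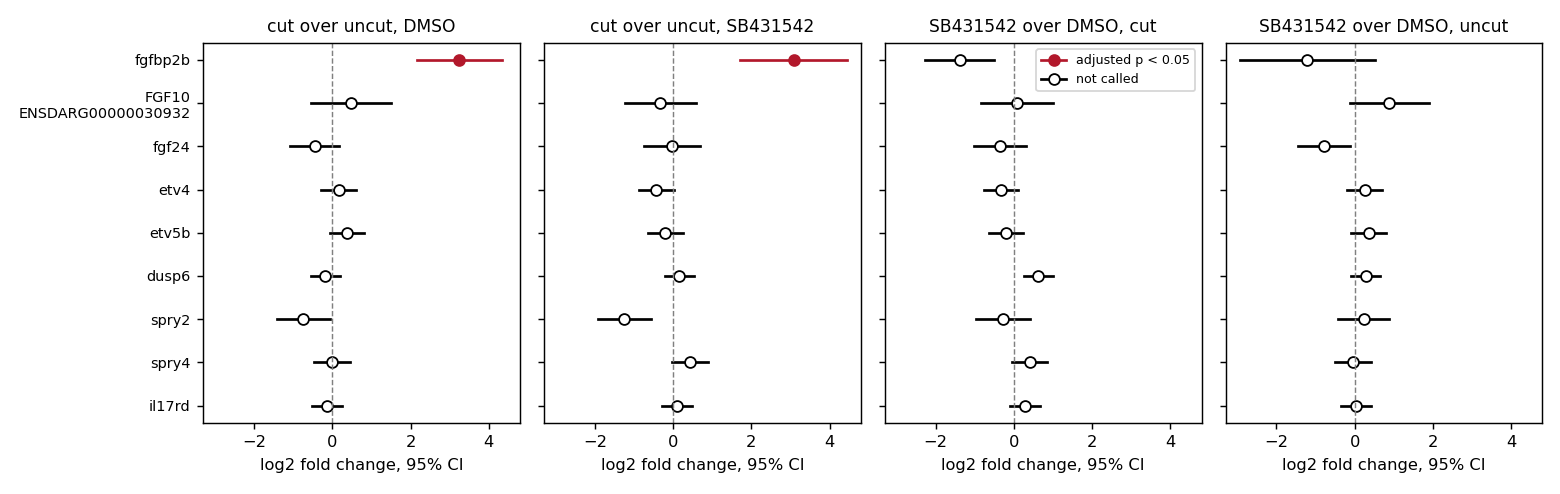
Log2 fold change (horizontal axis) with its 95% interval for the 9 tested FGF IDs (rows) in 4 comparisons (panels); filled red points passed an adjusted p of 0.05 in edgeR and open black points did not. fgfbp2b at 3.25 under DMSO and 3.08 under SB431542 is the only gene with filled points. Of the open points, some have intervals to 1 side of 0. They are spry2 for excision under both treatments, and, for SB431542 over DMSO, dusp6 and fgfbp2b in cut tails and fgf24 in uncut tails.

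The genes most like the mean standardised log2 CPM of the 6 targets, over the same 12 libraries, were sox13 (r = 0.891), ZFYVE9 (0.873), sulf2a (0.857), hoxa9a (0.847) and OAZ2 (0.821). sulf2a encodes a sulfatase that edits heparan sulphate, the sugar chain that FGFs bind along with their receptors, and averaged 11.1 ± 1.28 CPM in cut SB431542, 11.9 ± 1.6 CPM in uncut SB431542, 9.95 ± 1.52 CPM in cut DMSO and 9.39 ± 0.901 CPM in uncut DMSO tails. OAZ2, an inhibitor of the polyamine enzyme ornithine decarboxylase, averaged 80.9 ± 3.75, 83.5 ± 23.3, 48.3 ± 3.5 and 53.8 ± 13.1 CPM in the same order of groups. In edgeR, sox13, ZFYVE9, sulf2a, hoxa9a and OAZ2 were called in no comparison. The r values of these genes are lower than those found for fgfbp2b and are a description only.

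Other genes of the FGF pathway were taken from a list by role. It matched 85 IDs, the 4 FGF10 and FGF20 IDs left out, of which 59 could be tested. Under SB431542, 0 of the 59 rose and 1 fell in cut over uncut tails, beside 2.06% of all genes called, and under DMSO 2 rose and 1 fell, beside 5.58% of all genes. These counts are near the share over all genes, so the 4 called genes are not a result about the list. None was called for SB431542 over DMSO in cut or uncut tails, or in the interaction. The list's median log2 fold change was -0.02 for excision under SB431542 and 0.01 under DMSO, against 0.00 and 0.02 over all genes tested. Of the ligands, 11 of 26 IDs could be tested and 0 were called in any comparison. The median log2 fold change of those 11 was -0.58 for excision under SB431542, with 1 of 11 above 0, and -0.03 under DMSO, with 5 of 11 above 0. Of the 4 other IDs for binding proteins, 1 passed the filter and it was not called. Unlike fgfbp2b it was lower in cut tails, with a log2 fold change of -0.661 under SB431542 (edgeR adjusted p = 0.176) and -0.435 under DMSO (adjusted p = 0.333).

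Among receptors, FGFR1 (ENSDARG00000011027, 1 of 2 IDs with that symbol), a main receptor of FGFs in mesenchyme, had 49.4, 48.4 and 38.9 CPM in cut SB431542, 63.3, 54.9 and 47.8 CPM in uncut SB431542, 35.5, 29.2 and 32.5 CPM in cut DMSO, and 69.5, 51.0 and 60.9 CPM in uncut DMSO tails. All cut DMSO libraries lay below all others. It fell under DMSO, to a fold of 0.537 (log2 fold change -0.90 ± 0.18, adjusted p = 0.00625), and gave -0.28 under SB431542 (adjusted p = 0.493). Without cut DMSO replicate 3 the DMSO value was -0.83, with an adjusted p of 0.0516.

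CNPY1 (ENSDARG00000003757), in zebrafish a positive regulator of FGF signalling, had 2.9, 4.19 and 5.22 CPM in cut SB431542, 2.36, 4.29 and 6.65 CPM in uncut SB431542, 4.71, 8.09 and 6.67 CPM in cut DMSO, and 2.39, 2.14 and 1.54 CPM in uncut DMSO tails. All cut DMSO libraries lay above all uncut DMSO ones, while the SB431542 groups overlapped. It rose 3.24-fold under DMSO (log2 fold change 1.70 ± 0.41, adjusted p = 0.018) and gave -0.13 under SB431542 (adjusted p = 0.911), or 0.35 without uncut SB431542 replicate 4. The DMSO call was lost without cut DMSO replicate 3 (adjusted p = 0.0965) or without uncut DMSO replicate 1 (0.0536), 2 (0.0592) or 4 (0.112).

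MAP2K1 (ENSDARG00000007825), the kinase that activates ERK, had 12.7, 14.6 and 15.4 CPM in cut SB431542, 8.96, 10.8 and 8.37 CPM in uncut SB431542, 23.3, 19.9 and 18.8 CPM in cut DMSO, and 10.6, 8.42 and 10.9 CPM in uncut DMSO tails. Cut libraries lay above uncut ones under both treatments. It rose 2.06-fold under DMSO (log2 fold change 1.04 ± 0.21, adjusted p = 0.00542), a call held in all 18 alternatives, and gave 0.62 under SB431542 (adjusted p = 0.167).

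etv5a (ENSDARG00000069763), the PEA3-group paralogue of etv5b, had 36.4, 29.4 and 32.9 CPM in cut SB431542, 45.0, 60.7 and 78.3 CPM in uncut SB431542, 34.8, 41.8 and 45.6 CPM in cut DMSO, and 56.2, 69.7 and 64.6 CPM in uncut DMSO tails. As for spry2, each cut library lay below each uncut library of its treatment. It fell under SB431542, to a fold of 0.535 (log2 fold change -0.90 ± 0.20, adjusted p = 0.0258), and gave -0.64 ± 0.20 under DMSO (adjusted p = 0.0667). The fall under DMSO was called in 3 of 18 alternatives. These were DESeq2 (adjusted p = 0.0306) and edgeR without uncut SB431542 replicate 2 (0.0414) or 4 (0.0177). The SB431542 call was lost without cut SB431542 replicate 3 (adjusted p = 0.154) or 4 (0.0823) and without uncut SB431542 replicate 3 (0.0538) or 4 (0.0615), the log2 fold change without the last being -0.68. The interaction of excision and SB431542 was -1.82 ± 0.56 (SE) for CNPY1, 0.62 ± 0.26 for FGFR1, -0.42 ± 0.31 for MAP2K1 and -0.26 ± 0.28 for etv5a on the log2 scale. Their adjusted p-values ran from 0.91 to 0.918, in a test where no gene went below 0.91, so a difference between treatments was neither called nor shown to be absent. Without uncut SB431542 replicate 4 the etv5a interaction was -0.04. The marker sums given for fgfbp2b and spry2 apply to the same libraries, and the part of those cells in the values of these 4 genes was not tested.

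**Figure D5:**
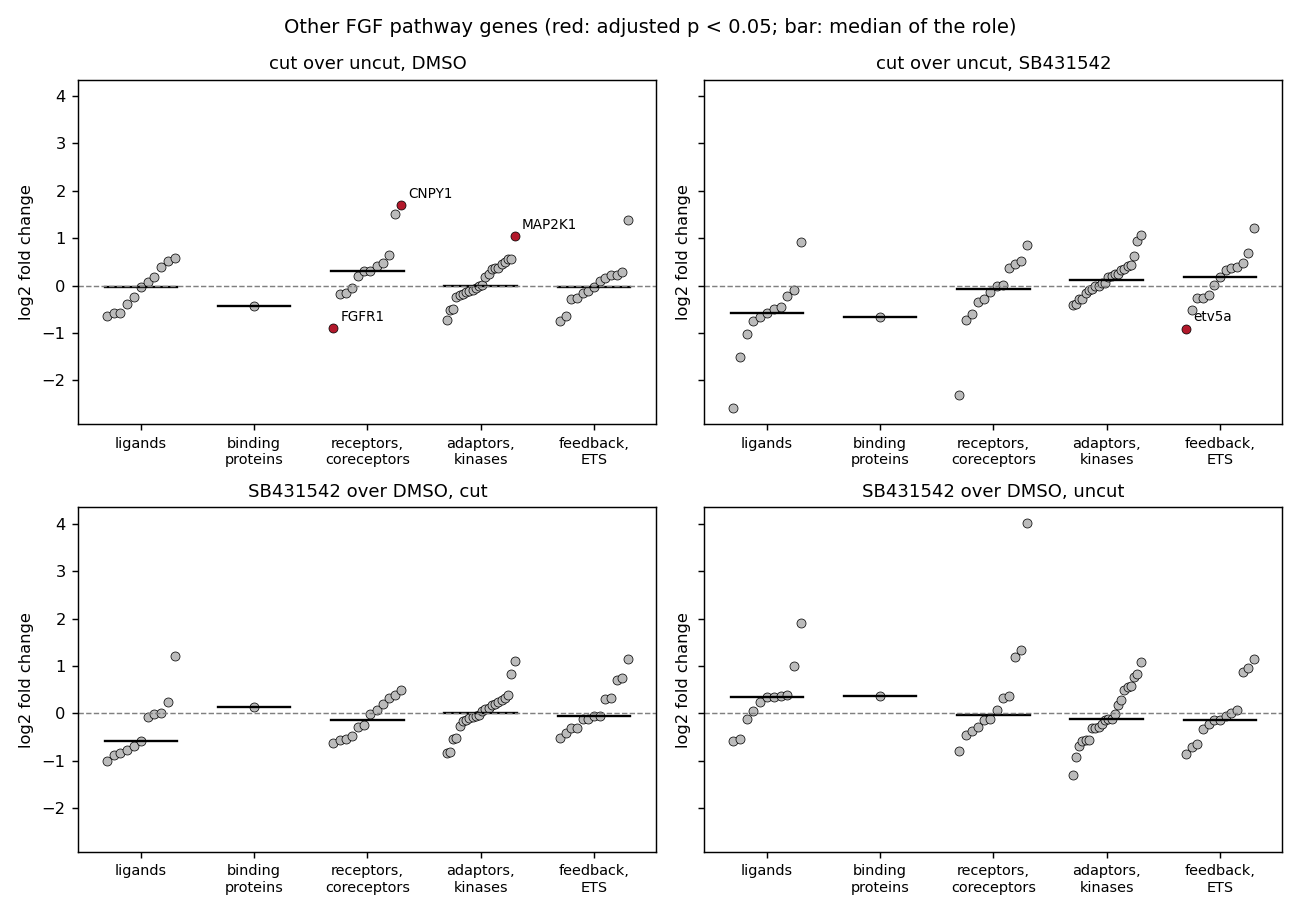
Log2 fold change (vertical axis) of the 59 tested other FGF pathway IDs by role (horizontal axis) in 4 comparisons (panels); each point is a gene ID, red points passed an adjusted p of 0.05 in edgeR, and bars are medians of the role. CNPY1 at 1.70, MAP2K1 at 1.04 and FGFR1 at -0.90 are called for excision under DMSO and etv5a at -0.90 under SB431542.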

How the data were processed

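Each library held 100 pooled tails, prepared with Lexogen's QuantSeq 3′ FWD kit, per the labels' protocols. Reads start near the poly(A) end, so a count does not depend on transcript length. The authors deposited estimated counts per Ensembl gene with no normalization. Per library, 23.1% to 26.7% of nonzero values were fractional. Per the submitters' processing notes the genome build was GRCz11. An aligner and a counter were not given in the sources used here. The authors' normalized table was not used.

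Estimated counts were rounded and tested in 1 fit of the 4 group means by quasi-likelihood in edgeR 4.0.16 (R 4.3.3, glmQLFTest, robust, its newer method), after filterByExpr and trimmed-mean (TMM) scaling. Each gene's p-values are two-sided and adjusted by the Benjamini-Hochberg method over the 13978 genes tested, with calls under 0.05. Intervals are 95%, and SE is the log2 fold change divided by the root of F. Symbols came from a table that named 23598 of the 30258 IDs (77.99%).

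Members and lists were chosen with earlier results of these data known. Beyond the 10 genes, named genes are the other pathway genes called in any comparison and the 5 with the highest Pearson r to fgfbp2b or to the targets' mean, with a mean of at least 5 CPM. Alternatives were RLE and upper-quartile scaling, DESeq2 1.42.0, no count filter, the replicate block, leaving out each library and, added after seeing the data, edgeR's older method. Floors of 3 reads cover counting error only. No sequence or coordinate was used here.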

Additional observations from a re-analysis of the deposited data

How the results depend on the processing

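Of 809 values of the 9 tested FGF IDs under the alternatives, other pathway genes not counted, 796 kept their side of the threshold, 6 lost a call, all of them fgfbp2b under SB431542, 7 gained one, and no call reversed. For excision under SB431542, 288 genes were called, and DESeq2 called 549. For SB431542 in cut tails, 40 were called, against 12 with edgeR's older method, 324 with DESeq2 and 130 with no count filter. For SB431542 in uncut tails, 11 were called, against 1 with RLE and 1 with upper-quartile scaling, 293 with DESeq2 and 109 with no filter. The cause was not tested. Leaving out 1 library at a time, calls ran from 321 to 1432 for excision under DMSO (780 with all libraries), 119 to 399 under SB431542, 9 to 473 for SB431542 in cut tails, 0 to 666 in uncut tails and 0 to 0 for the interaction. Without uncut SB431542 replicate 4, the library that stood apart, the first 4 counts were 1432, 399, 473 and 4. Among the 9 FGF IDs, leaving out 1 library gave 1 to 2 calls for excision under DMSO, 0 to 1 under SB431542 and 0 to 1 for SB431542 in cut tails. DESeq2 gave 2 FGF calls for excision under SB431542 and 1 for SB431542 in cut tails, as named above.

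Samples of different groups share replicate numbers. Deviations of same-numbered libraries correlated between -0.03 and 0.34 (excision under SB431542, 3 pairs), with 3 of 6 libraries closest to their own number, and for 2 pairs each between 0.01 and 0.03 (excision under DMSO), 0.10 and 0.13 (SB431542 in cut tails) and -0.02 and 0.09 (uncut tails). Differently numbered pairs gave -0.28 to 0.18, -0.05 to 0.02, -0.10 to 0.07 and -0.12 to 0.16 in the same order. For SB431542 in cut tails, both same-numbered pairs thus lay above every differently numbered pair. These values and the labels do not settle whether the numbers pair the samples, and they were not taken as pairs. With the replicate block, 615 genes were called for excision under DMSO, 339 under SB431542, 14 for SB431542 in cut and 18 in uncut tails, and 2 FGF genes, fgfbp2b and spry2, under SB431542. Depth most limits FGF20 and 1 FGF10 ID, whose libraries hold 0 to 17 reads. Low counts also bear on fgfbp2b, with 34 reads over the uncut SB431542 libraries and 4 in its lowest library. The tested FGF10 ID had 7 reads in its lowest library.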
